A study of Mus musculus with 8 samples.

Results

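Genes that store, move and regenerate high-energy phosphate, together with the gene of the oxygen-binding protein myoglobin, were examined in neonatal cardiomyocytes (NCMs), the contracting cells of the newborn heart. The set held 9 genes of the 27179 in the count table, taken by their Entrez identifiers: the creatine kinases Ckm, Ckmt2, Ckb and Ckmt1, the creatine carrier Slc6a8, the creatine synthesis enzymes Gatm and Gamt, the adenylate kinase Ak1 and the myoglobin gene Mb. RNA-seq libraries came from 4 offspring of C57Bl/6 J dams that breathed filtered air (FA) and from 4 offspring of dams that breathed diesel exhaust (DE), in both cases from E0.5 to E17.5 (embryonic days), with hearts taken at postnatal day 0. Per the study's methods each library held the NCMs of 1 male heart, freed of atrial and vascular tissue, dissociated by enzyme and left on a plate so that fibroblasts would attach and be removed. FA libraries carry the replicate numbers 2, 3, 4 and 6 and DE libraries 1, 3, 5 and 7, and values below follow that order. How the hearts were spread over litters is not stated, so the p-values measure only the spread between these libraries. The comparison of DE with FA asks whether transcription in the newborn heart differs after exposure in utero.

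Contracting heart muscle holds a small store of ATP and turns it over rapidly. Creatine kinase at the mitochondrion passes phosphate from ATP to creatine, phosphocreatine carries it through the cell, and cytosolic creatine kinase at the contractile filaments and membrane pumps returns it to ADP. Adenylate kinase makes ATP and AMP from a pair of ADP molecules, and myoglobin stores oxygen and helps its movement to mitochondria. Ckb is the cytosolic creatine kinase of brain and of the embryonic heart, and Ckm, the muscle enzyme, becomes the main cytosolic form as the heart matures.

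Total counts ran from 17943024 to 39839737 over the 8 libraries. The sample names hold a further number, 11 in all 4 FA libraries and in DE replicates 1 and 7, and 12 in DE replicates 3 and 5. What it stands for is not stated, and no FA library carries 12, so a difference that belongs to the libraries numbered 12 cannot be told apart from one between hearts of the DE group. The cells matched their label: the summed level of 9 ventricular cardiomyocyte markers was 57960 to 65167 CPM (read counts scaled for library size) in FA and 45994 to 54585 in DE. Only 2 of the 9 passed the test given below, Myh6 (means of 23286 CPM in FA and 14613 in DE) and Pln (3475 and 2666 CPM). The sum of 10 skeletal muscle markers was 6.17 to 9.63 CPM in FA and 8.37 to 10.4 in DE. Ckm, Mb and Ak1 are also genes of skeletal muscle, and that tissue's markers were low but not absent, with Myh2, Myh4 and Pvalb each at 0 in 1 library. The sum of 8 fibroblast markers was 2007 to 3459 CPM in FA and 3653 to 6173 in DE, with no overlap of the groups. In such bulk samples fewer cells of a type and less RNA per cell cannot be told apart. FA replicates 2 and 4 were the closest pair within a group, with a mean chi-square per gene of 5.37, against 17.1 to 70.1 for the other pairs. Their counts thus differed by more than sampling noise. That cannot show whether 2 libraries came from the same heart or litter. All 8 labelled libraries were kept as separate samples.

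Of the 4 creatine kinases, Ckm, Ckmt2 and Ckb carried nearly all transcripts, and the promoters of these 3 are shown because the ratio of Ckmt2 to Ckm was steady over the libraries while that of Ckb to Ckm varied more. Each window runs from 250 bases before to 50 bases after the RefSeq transcript start (GRCm38.p6), is written 5′ to 3′ on the strand of the gene, and has in capitals the matches to an E-box (CANNTG, the site of basic helix-loop-helix factors such as MyoD) or to the MEF2 element, the site of the myocyte enhancer factor 2 proteins.
Ckm (chr7:19410844-19411143, plus strand): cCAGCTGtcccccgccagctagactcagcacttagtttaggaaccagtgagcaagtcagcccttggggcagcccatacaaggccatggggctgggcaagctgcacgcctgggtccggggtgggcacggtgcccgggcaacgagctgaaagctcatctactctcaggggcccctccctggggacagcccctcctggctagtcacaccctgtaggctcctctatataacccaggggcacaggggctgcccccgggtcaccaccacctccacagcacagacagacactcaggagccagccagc
Ckmt2 (chr13:91876836-91877135, minus strand): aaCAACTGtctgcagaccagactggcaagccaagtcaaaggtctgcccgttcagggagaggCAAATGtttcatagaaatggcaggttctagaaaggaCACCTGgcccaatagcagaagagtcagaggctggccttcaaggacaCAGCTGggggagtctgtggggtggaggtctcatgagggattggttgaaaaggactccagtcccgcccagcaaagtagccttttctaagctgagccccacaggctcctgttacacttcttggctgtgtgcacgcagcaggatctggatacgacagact
Ckb (chr12:111672289-111672588, minus strand): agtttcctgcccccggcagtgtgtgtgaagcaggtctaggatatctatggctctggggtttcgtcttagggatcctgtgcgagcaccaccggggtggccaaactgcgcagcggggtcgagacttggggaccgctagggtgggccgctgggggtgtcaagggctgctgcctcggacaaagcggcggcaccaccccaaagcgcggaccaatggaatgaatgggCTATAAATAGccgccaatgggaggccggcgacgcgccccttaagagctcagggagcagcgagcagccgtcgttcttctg

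The Ckm window held 1 E-box, 249 bases before the start. The Ckmt2 window held 4, at 248, 189, 153 and 107 bases before it. The Ckb window held no E-box and 1 match to MEF2, which began 29 bases before the start and spells CTATAAATAG, so its letters also hold the TATAAA of a TATA box. An E-box occurred in 72.3% of all 32851 RefSeq windows of this length and MEF2 in 3.19%, searched on both strands. The nuclear receptor half-site AAGGTCA (4.72% of windows) was matched in 1 of 2 windows of Ckmt1 and 1 of 4 windows of Ak1, another Ak1 window held a MEF2 match (again with TATAAA), and the CArG box of serum response factor (1.63% of windows) was in none of the 14 windows of the 8 genes that had one. Slc6a8 had no window. These are matches of letters and say nothing of binding in these cells.

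Levels can be compared between genes only per transcript length. On the TPM scale, which divides counts by transcript length and brings every library to one total, with the longest annotated transcript of each gene as its length, Mb was by far the most abundant, at 4055 ± 256 TPM in FA (SD, n = 4) and 4189 ± 267 in DE, and ranked between 21 and 24 of 21572 genes in every library. Ckm followed at 889 ± 68.0 TPM in FA and 961 ± 83.7 in DE, ranked 104 to 121. Ckmt2, the mitochondrial creatine kinase of heart and skeletal muscle, stood at 325 ± 16.9 and 352 ± 40.2 TPM. Ak1, the cytosolic adenylate kinase of muscle, was at 263 ± 13.3 TPM in FA and 230 ± 11.1 in DE. The oxygen store and the muscle enzymes thus formed the upper part of the order, above the genes of creatine supply.

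Ckb came next in FA, at 155 ± 29.0 TPM. In DE its mean, 232 ± 31.6 TPM, lay just above the Ak1 mean of 230 TPM. Slc6a8, which brings creatine into the cell from blood, was at 84.1 ± 20.6 and 74.9 ± 1.01 TPM. The synthesis genes lay far lower: Gamt, the enzyme that methylates guanidinoacetate to creatine, had 10.3 ± 1.26 and 14.9 ± 2.37 TPM, and Gatm, the enzyme of the step before it, had 2.42 ± 0.58 and 2.84 ± 0.69 TPM. Ckmt1, the mitochondrial creatine kinase found mainly in brain and other non-muscle tissue, was last at 0.60 ± 0.13 and 1.02 ± 0.44 TPM. The transcript of the creatine carrier was therefore abundant in these cells and those of both synthesis enzymes were scarce. In FA the ranges of neighbours in this order did not overlap. In DE those of Ak1 (214 to 239 TPM) and Ckb (201 to 268 TPM) did.

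**Figure D1:**
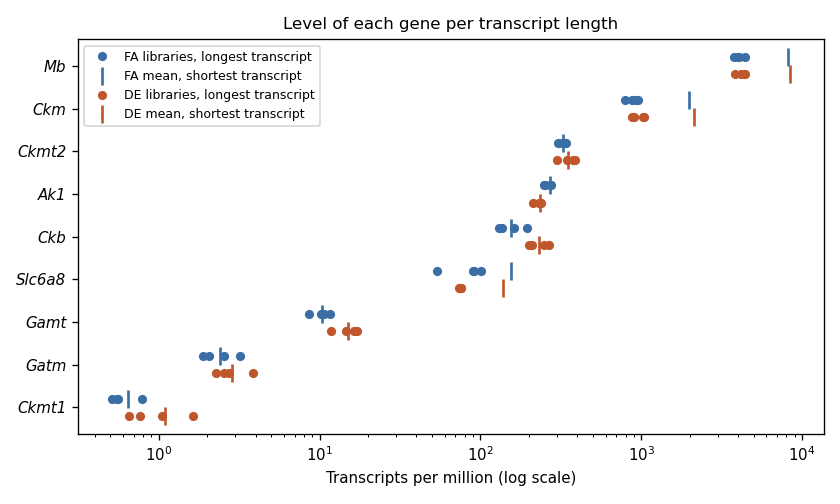
Level of each of the 9 genes in TPM (log axis), with 1 point for each library (blue FA, orange DE, 4 each) from the longest annotated transcript and a vertical tick for the group mean from the shortest. Mb and Ckm lead in all libraries, and Gamt, Gatm and Ckmt1 lie below 20 TPM in all of them.

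The length chosen matters for some genes. Annotated transcripts run from 1235 to 2742 bases for Ckm and from 550 to 1104 for Mb, and with the shortest ones Ckm was at 1973 TPM and Mb at 8140 TPM in FA. The order of Mb, Ckm, Ckmt2 and Ak1 was then the same, whereas Slc6a8 (155 ± 38.0 TPM) came level with Ckb in FA. In DE it stayed below Ckb, at a mean of 138 TPM against 232, and the ranges did not overlap. Stretches shared with other annotated genes bear on 4 of the 9 genes. On the opposite strand, 315 of 2693 50-base words of Ckm are shared with A930016O22Rik, 359 of 1055 of Mb with Gm49540 and 36 of 1437 of Ckmt2 with 1700119I11Rik. The library kit marks strand, but the strand setting of the counting is not stated. A930016O22Rik itself had 52 counts over the 8 libraries, against 266066 for Ckm. For Ckb, 312 of 1423 words are shared with the processed pseudogenes Gm12892, Ckb-ps1 and Ckb-ps2, so how reads from those stretches were counted is uncertain.

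None of the 9 genes differed between DE and FA at an adjusted p of 0.05 or less with a difference of 25% or more, by the quasi-likelihood test of edgeR, with p adjusted over all 14966 genes tested. All 9 passed the filter on low counts. Across all tested genes 868 met that rule, which is 5.80%; 2.22% were called lower and 3.58% higher. At an unadjusted p under 0.05 stood 4 of the 9, Ckb, Gamt and Ckmt1 above FA and Ak1 below it, where the background was 25.6% of all genes. By limma-voom none of the 9 was called (5.75% of all genes), and by DESeq2 and by the likelihood ratio test of edgeR 1 was, Ckb, described below. A total of 7 members lay higher in DE and 2 lower, with a median log2 difference of 0.09 against 0.0037 over all genes. The CPM ranges of the groups overlapped for every member, while over all tested genes 14.7% showed no overlap.

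**Figure D2:**
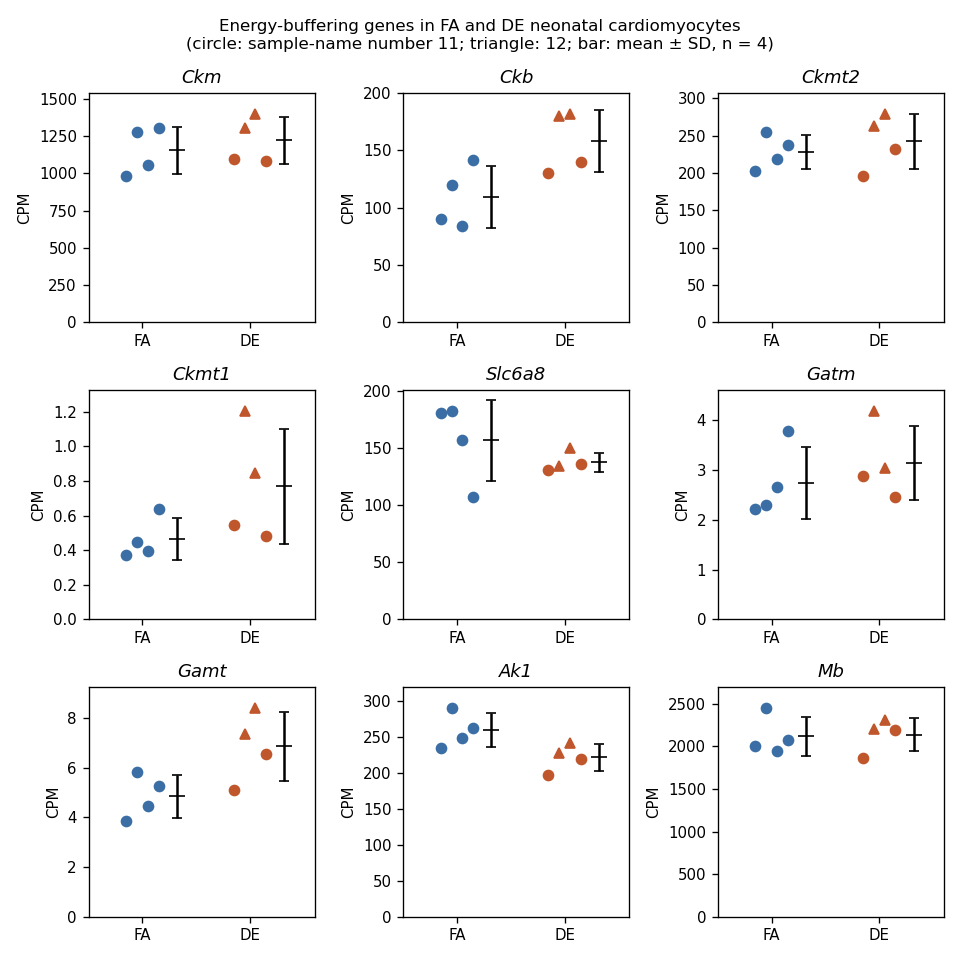
Normalised level (CPM, axes from 0) of each gene in the 4 FA and 4 DE libraries, with circles for sample-name number 11, triangles for 12, and a bar for the mean ± SD of the group. The DE mean lies above the FA mean for Ckb, Ckmt1 and Gamt and below it for Ak1. For Ckm and Ckmt2 the triangles lie above the FA points.

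Ckm (chromosome 7, 19411094 to 19421583), whose enzyme sits at the M line of the sarcomere, had 985, 1279, 1058 and 1302 CPM in FA and 1099, 1305, 1399 and 1081 CPM in DE. In each group 2 libraries were low and 2 high. FA replicates 2 and 4 lay below every DE library and DE replicates 3 and 5 above every FA library, while FA replicates 3 and 6 lay above DE replicates 1 and 7. The log2 difference was 0.08 (SE 0.13, 95% interval -0.20 to 0.36, adjusted p = 0.727).

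Ckmt2 (chromosome 13, 91853386 to 91876923), which couples ATP leaving the mitochondrion to creatine, had 203, 255, 219 and 237 CPM in FA. Its DE libraries had 196, 263, 279 and 232 CPM. Both the lowest and the highest values were in DE, and the groups overlapped over the whole FA range. The log2 difference was 0.09 (SE 0.12, 95% interval -0.19 to 0.36, adjusted p = 0.694).

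Mb (chromosome 15, 77015487 to 77050668) had 2007, 2451, 1944 and 2076 CPM in FA and 1860, 2200, 2306 and 2190 CPM in DE. The groups lay on top of each other, with the highest value in FA and the lowest in DE. Its log2 difference was 0.01 (SE 0.11, 95% interval -0.23 to 0.25, adjusted p = 0.955), the nearest to 0 of the 9.

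Ckb (chromosome 12, 111669355 to 111672338) had 90.1, 120.1, 83.9 and 142 CPM in FA. In DE it had 131, 180.3, 182 and 139.6 CPM. FA replicate 6 lay above DE replicates 1 and 7, and the other 3 FA libraries lay below every DE library. The group means were 109 ± 27.0 and 158 ± 26.8 CPM (SD, n = 4 each), a fold of 1.45. The fit gave a log2 difference of 0.54 (SE 0.18, 95% interval 0.15 to 0.92, adjusted p = 0.0926 by edgeR's quasi-likelihood test).

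The call on Ckb turned on the test and on 1 library. It passed with DESeq2 (adjusted p = 0.0373, where 10.8% of all genes were called), with edgeR's likelihood ratio test (adjusted p = 0.0418, 10.7% of genes) and without FA replicate 6 (log2 difference 0.69, adjusted p = 0.0435, 5.34% of genes). With the number in the sample name as a term, the difference was 0.31 with an adjusted p of 0.41. With offsets, chosen after the data were seen, that level out how counts in a library depend on gene length and GC content, it was 0.32 (adjusted p = 0.0875).

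Length moved with the sign of the differences across the whole table. The median log2 difference over tested genes was 0.18 for transcripts under 1 kb, 0.11 for 1 to 2 kb, 0.04 for 2 to 3 kb, -0.03 for 3 to 5 kb and -0.15 above 5 kb. Ckb, at 1472 bases, and Gamt, at 988, are in the bins with medians above 0. So is every other member but Slc6a8, at 3964 bases. Among them Ckmt2 (1486 bases) and Mb (1104) had log2 differences of 0.09 and 0.01, and Ak1 (2085) one of -0.23. The part of length in the differences of the members was not tested beyond the offset fit given here.

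Fibroblast markers were also higher in DE, and their part in the Ckb difference was not tested. All 8 lay above FA, with a median log2 difference of 0.66, and Col1a1, a collagen chain of connective tissue, and Dcn, the matrix proteoglycan decorin, passed the test (0.95 and 0.56, adjusted p = 0.0087 and 0.0471 by edgeR). The fibroblast sums were 3108, 2007, 2913 and 3459 CPM in FA and 6173, 4695, 3653 and 4532 CPM in DE.

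Ckmt1 (chromosome 2, 121357773 to 121363737) had 0.37, 0.45, 0.39 and 0.64 CPM in FA and 0.54, 1.20, 0.85 and 0.48 CPM in DE. These rest on 7 to 42 counts a library, 146 in all. DE replicates 3 and 5 lay above the FA range and DE replicates 1 and 7 within it. The log2 difference was 0.79 with a wide 95% interval of 0.04 to 1.54 (SE 0.34, adjusted p = 0.178), and it was 0.18 in the libraries numbered 11 alone and 0.49 without DE replicate 3.

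Slc6a8 (chromosome X, 73673133 to 73682502) had 181, 182, 157 and 107 CPM in FA and 130.4, 134, 149 and 136 CPM in DE. The spread was wide in FA (coefficient of variation 22.5%) and narrow in DE (6.08%), and all DE values fell inside the FA range. Its log2 difference was -0.19 (SE 0.15, 95% interval -0.52 to 0.14, adjusted p = 0.458). FA replicate 6 was the low library, and without it the difference was -0.34 (adjusted p = 0.0773). Without FA replicate 2 or FA replicate 3 it was -0.11 in both cases (adjusted p = 0.747 and 0.69).

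Gatm (chromosome 2, 122594473 to 122611277) had 2.22, 2.29, 2.65 and 3.78 CPM in FA and 2.87, 4.19, 3.04 and 2.45 CPM in DE, with a log2 difference of 0.22 (SE 0.22, 95% interval -0.27 to 0.71, adjusted p = 0.566). FA replicate 6 lay above 3 of the 4 DE libraries. The Gatm difference was 0.045 once DE replicate 3 was dropped and 0.41 once FA replicate 6 was. Gamt (chromosome 10, 80258151 to 80261025) had 3.85, 5.83, 4.46 and 5.26 CPM in FA and 5.11, 7.37, 8.40 and 6.55 CPM in DE. DE replicate 1 lay within the FA range and the other 3 DE libraries above it. The log2 difference of Gamt was 0.51 (SE 0.19, 95% interval 0.10 to 0.92, adjusted p = 0.119), and 0.25 with the length and GC offset. The 2 enzymes of creatine synthesis were thus both at a few CPM, and neither passed the test.

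Ak1 (chromosome 2, 32621758 to 32635058) was the member with the lowest log2 difference. It had 234, 290.2, 249 and 263 CPM in FA and 197, 228, 241 and 219.9 CPM in DE. DE replicate 5 was the single DE library within the FA range, above FA replicate 2. The means were 259 ± 23.7 and 222 ± 18.5 CPM (SD, n = 4 each). The fit gave a log2 difference of -0.23 (SE 0.10, 95% interval -0.45 to -0.0012, adjusted p = 0.193 by edgeR). The call changed with the length and GC offsets: Ak1 then passed at -0.33 (adjusted p = 0.0147), in a fit that called 11.4% of all genes against 6.10% of the same genes without the offset. All 9 ventricular cardiomyocyte markers also lay lower in DE, with a median log2 difference of -0.16, but only Myh6 and Pln passed the test. Their part in the Ak1 difference was not tested.

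The scale also mattered for the overlap of groups. Per transcript length, where each library is scaled to the same transcript total, the FA and DE ranges of Ckb (130.0 to 194 and 201 to 268 TPM), Ak1 (250 to 276 and 214 to 239 TPM) and Gamt (8.64 to 11.7 and 11.7 to 17.0 TPM) did not overlap. Those 3 of 9 stand beside 14.9% of all tested genes with a length. In Gamt the gap was only that between 11.68 and 11.70 TPM.

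**Figure D3:**
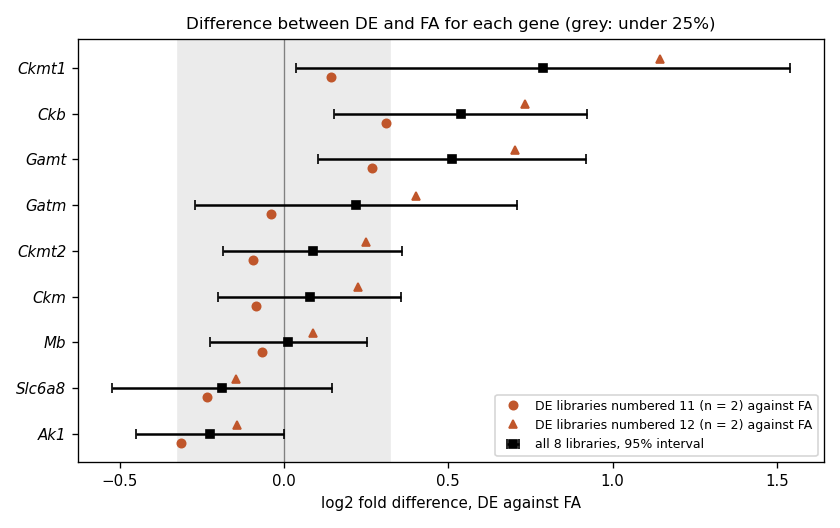
Log2 difference of DE against FA for each gene, with the 95% interval of the fit to all 8 libraries (black squares) and the values for the 2 DE libraries numbered 11 (circles) and the 2 numbered 12 (triangles) against the 4 FA libraries; the grey band marks a difference under 25%. The triangle lies to the right of the circle for all 9 genes, and for Ckm, Ckmt2, Gatm and Mb the 2 lie on opposite sides of 0.

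The 2 DE libraries numbered 12 stood above the 2 numbered 11 in the mean of all 9 members, as they did for 50.1% of all tested genes. For Ckb the log2 ratio to the FA mean was 0.31 in those numbered 11 and 0.73 in those numbered 12. For Ckm it was -0.09 and 0.23, for Ckmt2 -0.10 and 0.25, for Mb -0.07 and 0.09, and for Gatm -0.04 and 0.40. Thus the direction of these 4 genes depended on which DE libraries were used. Gamt (0.27 and 0.70) and Ckmt1 (0.14 and 1.14) kept a positive sign in both pairs, and Slc6a8 (-0.23 and -0.15) and Ak1 (-0.31 and -0.14) a negative one. Both libraries numbered 12 lay outside the FA range for Ckm, Ckmt2, Ckb, Ckmt1 and Gamt, which is 5 of 9 members against 46.1% of all tested genes, and both DE libraries numbered 11 for Ak1, 1 of 9 against 26.5%.

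Ratios of creatine kinases within a library do not depend on a scaling factor for the whole library, though they can carry its trend with transcript length. The log2 ratio of Ckb to Ckm counts was -3.45, -3.41, -3.66 and -3.20 in FA and -3.07, -2.86, -2.94 and -2.95 in DE. Every DE library thus had more Ckb per Ckm than every FA library. The mean difference was 0.47, a fold of 1.39, with p = 0.0286 in the exact two-sided permutation test over the 70 splits, the smallest p that 4 against 4 libraries can give, and p = 0.0857 after Benjamini-Hochberg adjustment over the 3 ratios tested, so it did not pass after adjustment. In the libraries numbered 11 alone the difference was 0.42. Ckb, at 1472 bases, and Ckm, at 2742, fall in different bins of the length trend, and with the length and GC offsets their own log2 differences were 0.32 and 0.02, closer together than the 0.54 and 0.08 without them.

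The ratio of the mitochondrial pair did not pass either. The log2 ratio of Ckmt1 to Ckmt2 was -9.08, -9.15, -9.12 and -8.54 in FA and -8.49, -7.77, -8.36 and -8.92 in DE, so DE replicate 7 lay within the FA range. The mean difference was 0.59 (exact permutation p = 0.0571, adjusted p = 0.0857), 0.27 in the libraries numbered 11 and 0.38 without DE replicate 3, and it rests on the low Ckmt1 counts given earlier. The ratio of mitochondrial Ckmt2 to cytosolic Ckm, by contrast, had a mean of -2.33 ± 0.085 in FA and -2.34 ± 0.11 in DE (log2, SD, n = 4), a difference of -0.0017 with an exact permutation p of 1. This ratio varied less between libraries than the difference seen in either of the other 2.

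**Figure D4:**
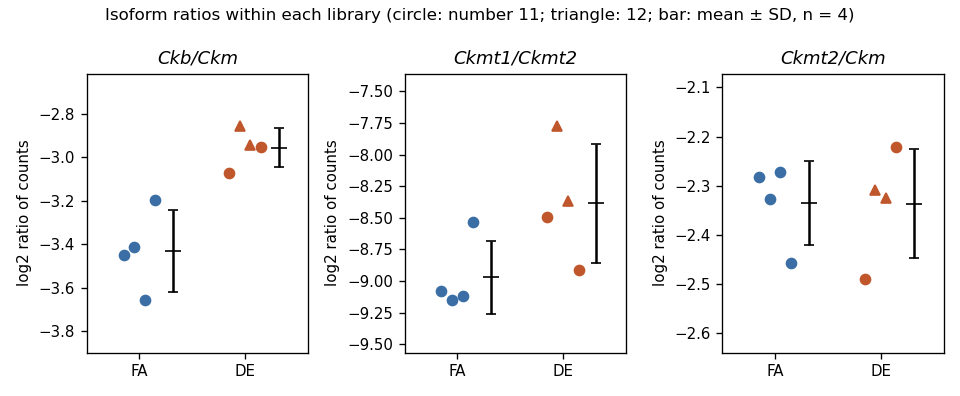
Log2 ratio of counts within each library for Ckb to Ckm, Ckmt1 to Ckmt2 and Ckmt2 to Ckm in FA and DE, with circles for sample-name number 11, triangles for 12 and bars for mean ± SD (n = 4); axes do not start at 0. The DE libraries lie above all FA libraries for Ckb to Ckm, between -3.07 and -2.86. For Ckmt2 to Ckm DE replicate 1 lies below and DE replicate 7 above the FA libraries, and the means are alike.

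Per transcript length, Ckm made up 64.9% ± 0.36 of creatine kinase transcripts in FA and 62.2% ± 1.55 in DE (SD, n = 4). Ckb made up 11.0%, 11.3%, 9.65% and 13.2% in FA and 14.3%, 15.8%, 15.0% and 14.7% in DE, again with no overlap. Ckmt2 held 23.8% ± 1.38 and 22.8% ± 1.22, and Ckmt1 0.044% and 0.065%. With the shortest annotated transcripts the Ckb share was 6.30% ± 0.82 in FA and 8.50% ± 0.43 in DE and that of Ckm 80.4% and 78.5%, so the size of the shares depends on the length taken and the direction did not. The shares restate the ratios and were not tested again.

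The neighbouring steps of phosphate transfer were read from further lists. Of 3 other adenylate kinases tested, none passed. Ak4, an adenylate kinase of the mitochondrial matrix, was at 23.3 CPM in FA and 31.6 in DE (adjusted p = 0.124 by edgeR). None of 7 nucleoside diphosphate kinases, which pass phosphate from ATP to other nucleotides, passed. Their median log2 difference was 0.10. The 6 genes of the adenine nucleotide translocators and the outer membrane channels, which let ATP and creatine phosphate out of the mitochondrion, all had a fitted log2 difference below 0, with none called and a median of -0.09. For Slc25a31, under 1 CPM, the group means ran the other way (0.905 CPM in FA and 0.924 in DE). Slc25a4, the heart translocator, was at 3197 CPM in FA and 2978 in DE (adjusted p = 0.61). At an unadjusted p under 0.05 stood 1 of the 16 genes of these 3 lists by edgeR.

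The enzymes that handle AMP, the product of adenylate kinase, held 1 called gene of 7, with 3 at an unadjusted p under 0.05 by edgeR. Ampd1, the muscle AMP deaminase that turns AMP into IMP, rose from 2.61 ± 0.39 CPM in FA to 4.94 ± 1.50 in DE (log2 difference 0.92, SE 0.23, adjusted p = 0.0432 by edgeR), and its groups did not overlap. Ampd1 is a gene of skeletal muscle, the tissue for which 10 markers were listed. Of those 10 markers 5 could be tested, 3 of them higher in DE and none called, with a median log2 difference of 0.05; Myh8, a developmental myosin, was at 1.96 CPM in FA and 2.96 in DE without overlap (log2 difference 0.59, adjusted p = 0.138), and Mylpf, a fast myosin light chain, at 0.81 and 1.18 CPM (0.56, adjusted p = 0.148). The other 3 had log2 differences of 0.05 (Tnni2), -0.11 (Actn3) and -0.23 (Tnnt3). Their part in the Ampd1 difference was not tested. Of the other AMP deaminases, Ampd2 was at 34.8 CPM in FA and 36.4 in DE (log2 difference 0.07), and Ampd3 was at 26.0 CPM in FA and 17.4 in DE without overlap (log2 difference -0.57, adjusted p = 0.0607), and Nt5c1a, a cytosolic nucleotidase that acts on AMP, at 1.93 and 1.01 CPM (-0.97, adjusted p = 0.101). The median of the 7 AMP genes was -0.16, and 5 lay lower. Of 5 genes of creatine efflux and methyl supply, none passed, 1 stood at an unadjusted p under 0.05, and Slc16a12, a creatine exporter, was at 8.25 and 8.34 CPM.

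Cygb, the cytoglobin gene, a globin related to myoglobin that is expressed in fibroblasts among other cells, rose from 11.3 ± 1.12 to 17.4 ± 2.73 CPM (log2 difference 0.61, SE 0.14, adjusted p = 0.0283 by edgeR) while Mb had the difference of 0.01 given earlier. Cygb and the fibroblast marker sum both lay higher in every DE library than in every FA library, and the part of such cells was not tested. Among 12 regulators of muscle energy genes, 10 lay lower in DE, against 49.5% of all tested genes, and the median was -0.24. At an unadjusted p under 0.05 by edgeR stood 5 of the 12, against 25.6% of all tested genes. Those 5 included Epas1, which lay higher in DE (log2 difference 0.34, adjusted p = 0.112 by edgeR). One was called: Ppargc1b, a coactivator of nuclear receptors in mitochondrial gene programmes, fell from 31.0 ± 7.09 to 18.3 ± 1.76 CPM (log2 difference -0.76, SE 0.16, adjusted p = 0.0224 by edgeR). Its relative Ppargc1a was at 198 and 166 CPM (adjusted p = 0.31).

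Likeness to a member was measured over the 13361 genes that averaged 1 CPM or more, as the root mean square difference of log2 CPM, each centred on its own mean over the 8 libraries. Ckm was closest to Hsbp1 (0.036) and Tomm40l (0.038), and Ckmt2 to Rnaset2b (0.039) and Mrpl45 (0.049). Mb was closest to Triap1 (0.036) and Kcnq1 (0.043). Ckb was closest to Krtcap2 (0.072) and Myl12b (0.075), whose own log2 differences were 0.47 and 0.57 with adjusted p-values of 0.117 and 0.0549 by edgeR. With 8 libraries many genes have such a profile, and these are a description with no test.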

How the data were processed

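RNA-seq of 8 NCM libraries (4 FA, 4 DE) was used. Per the study's methods the authors aligned reads to mm10 with Ensembl v67 transcripts by TopHat, marked duplicates without removing them, and deposited raw fragment counts per Entrez gene from featureCounts. The counting annotation, strand setting and rule for multiply mapped reads are not given in the sources used here. The methods name 3 animals per group; all 4 labelled libraries of each group were used.

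Counts were tested with edgeR 4.0.16 in R 4.3.3 (quasi-likelihood test, TMM factors, filterByExpr with a minimum of 10 counts, Benjamini-Hochberg over 14966 genes). A call needed an adjusted p of 0.05 or less and a fold of 1.25 or more. CPM values are TMM-scaled. TPM used GENCODE M21 transcript lengths, known for 21572 genes that held at least 98.4% of the counts. Limma-voom (3.58.1), DESeq2 (1.42.0), other factors, filters and covariates, each library left out in turn and, added after the data were seen, length and GC offsets were alternatives. On data simulated from these libraries the test recovered 93.5% of 200 changed genes, with 2 false calls among 14835 genes. The size of the changes put into the simulation is not given here. The rate therefore does not tell how often differences of the size seen in the members would be found, and their lack of calls does not rest on it.

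The members and lists were chosen with earlier results of these data known. Named are the 9 members, called genes of the non-marker lists, at most 3 called genes of a marker list, and the 2 nearest profiles of Ckm, Ckmt2, Ckb and Mb. Ak4, Slc25a4, Slc25a31, Slc16a12, Ampd2, Ampd3, Nt5c1a, Ppargc1a, Epas1 and the skeletal muscle markers Myh8, Mylpf, Tnni2, Actn3, Tnnt3, Myh2, Myh4 and Pvalb were picked after their values were seen. Of the further marker lists, none of the atrial, skeletal muscle, endothelial, smooth muscle, leukocyte, erythroid or hepatocyte genes tested was called, and 1 neural marker was (Tubb3, 0.60 CPM in FA and 1.47 in DE). Ak6 and Hbb-bt were not matched, and 1 further gene of the lists is not reported here. A planned comparison of protein sequences was not run. Promoter windows on chromosome 18 were left out of the background.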

Additional observations from a re-analysis of the deposited data

How the results depend on the processing

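The count of called genes, 868, was 1615 with DESeq2, 1603 with the likelihood ratio test, 114 with the 25% difference built into the test, 448 with the number in the sample name as a term, 260 with libraries numbered 11 only, 1577 with length and GC offsets, and 237 to 1168 with 1 library left out. With library totals alone it split into 217 lower and 803 higher, against 332 and 536, and the median of all genes moved to 0.08. The number of members called, 0, was 1 with DESeq2 and the likelihood ratio test (Ckb), 1 with length and GC offsets (Ak1), and 0 to 1 with 1 library left out (Ckb without FA replicate 6). With the number as a term the sign turned for Ckm (-0.085), Ckmt2 (-0.096), Gatm (-0.015) and Mb (-0.066), with libraries numbered 11 only likewise (-0.090, -0.10, -0.021 and -0.071), and with the offsets for Ckmt2 (-0.027) and Mb (-0.16); none of these was called in either direction, and the cause was not tested. Leaving out 1 library put Mb between -0.034 and 0.089. Ckb, Ckmt1 and Gamt stayed higher and Slc6a8 and Ak1 lower in all alternatives, though Ckmt1 had no value at a mean of at least 1 CPM. The difference between DE and FA in the log2 ratio of Ckb to Ckm ranged from 0.40 to 0.55 with 1 library left out. No paired analysis was made, because neither the labels nor the methods pair an FA heart with a DE heart.

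Creatine, phosphocreatine, enzyme activity and protein were not measured, the libraries numbered 12 are all DE, and depth leaves Ckmt1 at 7 to 42 counts a library.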
